A study of Mus musculus with 18 samples.

Results

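The genes described here are 10 genes of the AP-1 and immediate early class, namely Fos, Fosb, Fosl2, Jun, Junb, Jund, Atf3, Egr1, Ier2 and Myc. They were found by an exact match of their symbols. The match used no measured value, but the genes were chosen with earlier results of these data known. All 10 were present both among the 50600 genes counted in the experiment at 1 day and among the 17127 genes counted in the experiment at 12 h. Gene expression was measured by RNA sequencing of mouse liver early after myocardial infarction (MI), which was produced by tying off the left anterior descending artery of the heart for good, or after a sham operation in which it was not tied. At 1 day there were 4 groups of 3 livers: HMRKO + MI, HMRKO + sham, LC + MI and LC + sham. At 12 h there were 2 groups of 3 livers, C57 MI and C57 sham. All mice were C57BL/6 males at 12 weeks of age. HMRKO mice carried floxed alleles of MR (Nr3c2), the mineralocorticoid receptor gene, together with Cre recombinase driven by the albumin promoter, which is active in hepatocytes, so that the other cells of the liver keep the gene. Littermate control (LC) mice carried the same floxed alleles without Cre and are called wild type in the labels, and the C57 mice carried no engineered allele that the labels name. For the MI livers at 1 day the operation, and for all livers the time, come from the series design, since the sample labels do not state them.

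AP-1 is a dimer of a Jun protein with a Fos, another Jun or an ATF protein, and it binds a short DNA element through a basic leucine zipper. The genes of its subunits, together with Egr1, Ier2 and Myc, are immediate early genes: serum, growth factors, cytokines and stress kinases switch them on from preformed factors, with no new protein needed, and their RNA is short lived, so that Fos RNA in particular usually returns to a low level within hours. In the liver this set is known for its brisk rise after partial removal of the organ and in the acute phase response.

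Each liver had 19098704 to 28945526 counts at 1 day. At 12 h the totals were 16745688 to 19190438 counts in C57 MI livers and 1361564 to 2255837 counts in C57 sham livers, so that depth and operation cannot be told apart there. Levels are given as CPM, the counts of a gene scaled to a common library size. Nr3c2, the targeted gene, ranged over 0.895 to 1.10 CPM in the HMRKO + MI livers and 2.55 to 3.76 CPM in the HMRKO + sham livers. It ranged over 1.90 to 3.56 CPM in the LC + MI livers and 4.71 to 6.70 CPM in the LC + sham livers. Whether the counted reads lie in the deleted part is not known. The 8 hepatocyte markers summed to 48880 to 75270 CPM over the 12 livers at 1 day, so the defining markers of the labelled tissue were present in each. LC + MI replicate 1 had a mitochondrial share of 18.9%, and the other livers at 1 day had 7.53% to 15.6%. Without that liver the numbers of the 10 genes that passed were 4 for HMRKO + MI versus HMRKO + sham, 4 for HMRKO + MI versus LC + MI, 0 for LC + MI versus LC + sham and 1 for the interaction of genotype and operation, against 4, 5, 0 and 2 with it.

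Jun, Junb, Jund and Fosl2 were all higher in HMRKO + MI than in LC + MI livers. Fos, the founding partner of Jun, passed in no comparison with edgeR and TMM scaling (its library factors). For that reason promoter sequences of these 5 genes are shown. Each is the 130 bases directly before the annotated start, 5′ to 3′ on the strand of the gene, from RefSeq (GRCm38.p6), whose promoter table held 7 of the 10 genes. Capitals mark matches, on either strand, to the AP-1 element TGACTCA, the cAMP response element TGACGTCA, the element TGACATCA, or TGACG, the left part of the cAMP response element. Positions are counted back from −1, the base before the start.
Jun (chr4:95052223-95052352, minus strand): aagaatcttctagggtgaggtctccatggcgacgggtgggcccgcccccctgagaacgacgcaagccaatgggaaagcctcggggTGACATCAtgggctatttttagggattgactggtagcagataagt
Junb (chr8:84978749-84978878, minus strand): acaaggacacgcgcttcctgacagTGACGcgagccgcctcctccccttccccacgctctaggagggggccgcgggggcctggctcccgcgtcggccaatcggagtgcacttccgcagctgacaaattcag
Jund (chr8:70697609-70697738, plus strand): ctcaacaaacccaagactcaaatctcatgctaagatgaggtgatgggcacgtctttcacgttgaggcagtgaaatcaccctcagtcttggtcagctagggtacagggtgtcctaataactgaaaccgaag
Fosl2 (chr5:32136342-32136471, plus strand): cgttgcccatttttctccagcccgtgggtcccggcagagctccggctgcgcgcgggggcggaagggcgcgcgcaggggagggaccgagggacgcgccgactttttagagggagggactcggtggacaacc
Fos (chr12:85473760-85473889, plus strand): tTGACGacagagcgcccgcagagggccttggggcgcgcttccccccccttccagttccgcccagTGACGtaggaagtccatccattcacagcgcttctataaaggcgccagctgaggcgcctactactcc

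The Jun window held TGACATCA from −45 to −38. This element was present in 2.19% of the 32851 promoter windows of the same length. TGACG was found from −106 to −102 in Junb, and from −129 to −125 and −66 to −62 in Fos, and 12.2% of all windows held it. Of the 7 genes with a window, 4 (Fos, Fosb, Junb and Atf3) held TGACG and 1 held TGACATCA. The full elements TGACTCA (2.49% of all windows) and TGACGTCA (1.3%) were in none of the 7 windows, and the windows of Jund and Fosl2 held no match to any of the 4 motifs. Of the 5 genes that were higher than in LC + MI livers, Jun, Junb, Jund and Fosl2 had none of these motifs in common in this window. Egr1, which was also higher, had no window in the promoter table. The windows say nothing of more distant elements.

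At 1 day, Egr1 was the member with the largest difference: its RNA was about 9 times as abundant in HMRKO + MI as in HMRKO + sham livers, while Fosl2 and Jun were about 2 times as abundant and Jund rose by a smaller margin. In this comparison 4 of the 10 genes rose and 0 fell at an adjusted p under 0.05 from edgeR, a tool that fits counts with the spread between replicates, against 22.0% of all 14266 genes tested that were higher and 21.7% that were lower. The median log2 fold change was 0.32 over the 10 genes and 0.01 over all genes. Against LC + MI livers, 5 of the 10 genes were higher in HMRKO + MI livers and 0 were lower, against 14.6% of all genes that were higher and 16.2% that were lower, and the median log2 fold changes were 0.69 and −0.01. These comparisons share the HMRKO + MI livers and are not independent of each other. In LC livers, 0 of the 10 genes passed after MI with edgeR or with DESeq2, against 2.68% of all genes that were higher and 2.33% that were lower, and 3 (Ier2, Junb and Fosl2) had an unadjusted p under 0.05. Between HMRKO + sham and LC + sham livers, 0 of the 10 passed with either tool and 0 had an unadjusted p under 0.05, against 0.021% of all genes higher and 0.014% lower. All 10 genes passed the filter on low counts at 1 day.

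**Figure D1:**
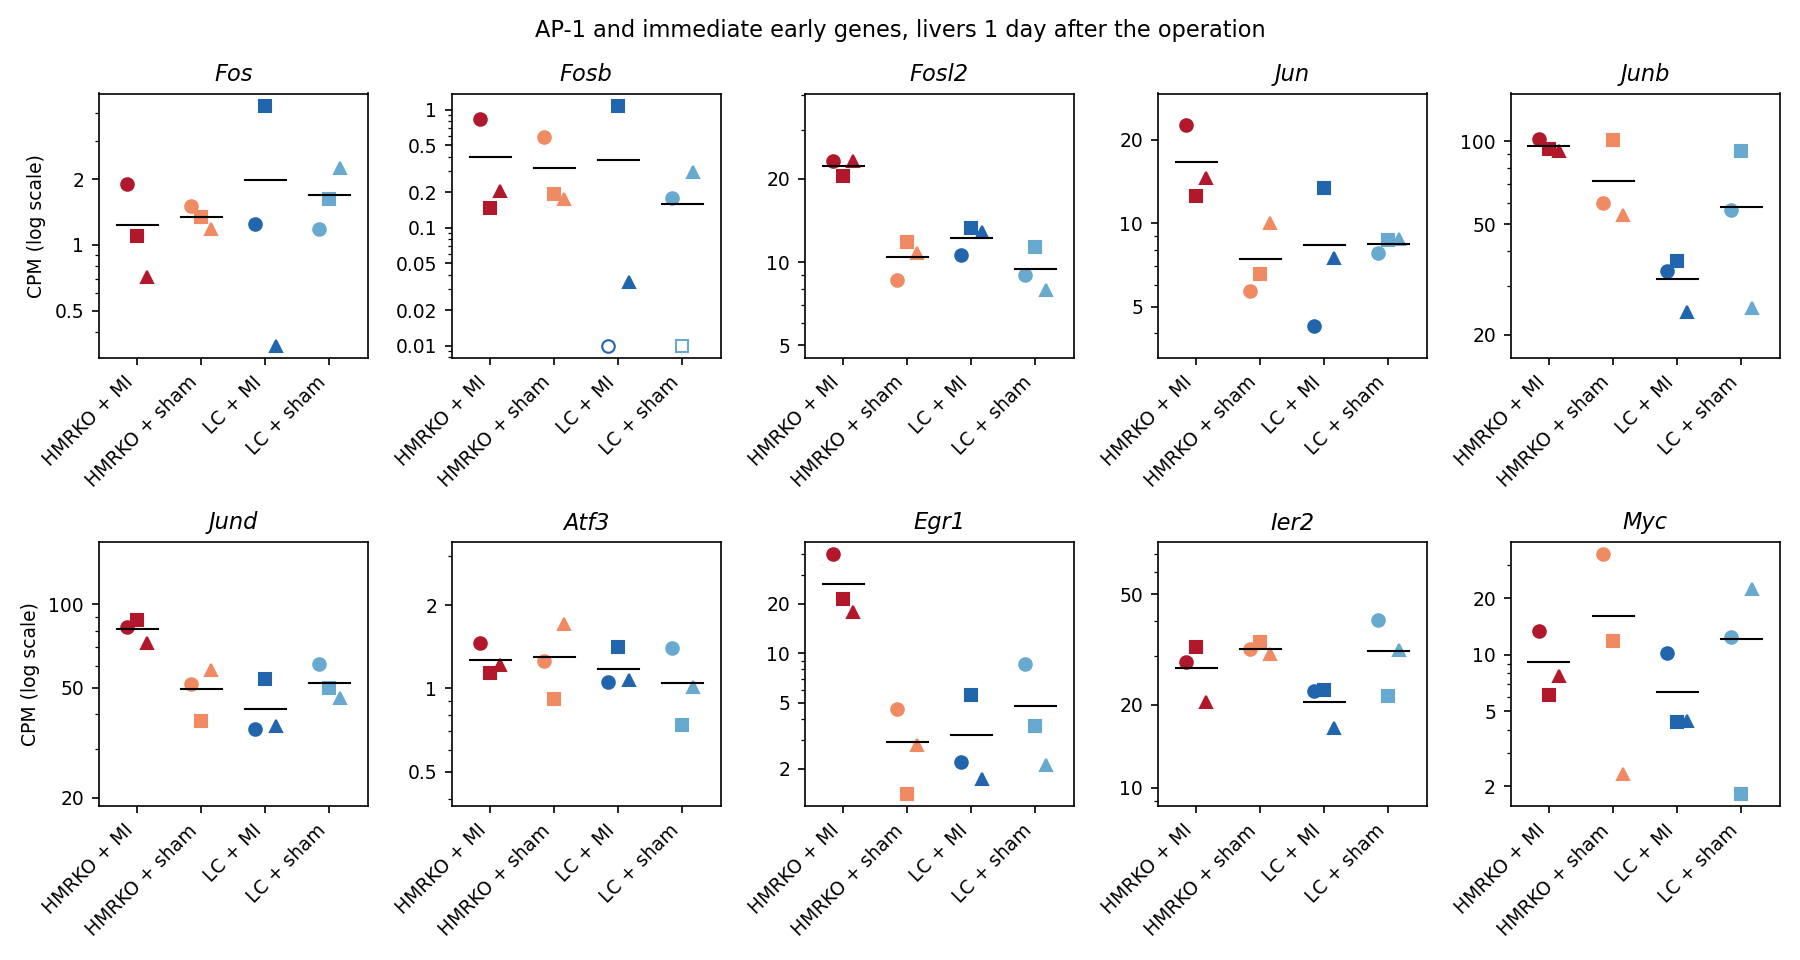
CPM (log scale) of the 10 genes in each liver at 1 day, with circles, squares and triangles for replicates 1, 2 and 3, a line at the mean of each group and open symbols at 0.01 for a count of 0. The 3 HMRKO + MI livers lay above all other livers for Fosl2, Jund and Egr1, and the 4 groups overlapped for Fos, Fosb, Atf3 and Myc. The share of all genes that lay apart in this way was not counted.

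Egr1 encodes a zinc finger factor that growth factor and stress signals induce. It stood at 40.0, 21.4 and 17.9 CPM in the HMRKO + MI livers, against 4.57, 1.40 and 2.77 CPM in HMRKO + sham livers. In the LC + MI livers it stood at 2.20, 5.59 and 1.73 CPM, against 8.58, 3.63 and 2.09 CPM in the LC + sham livers. Every HMRKO + MI liver was above all 9 other livers, and the other 3 groups overlapped. The log2 fold change was 3.17 (SE 0.58, adjusted p = 0.00107 from edgeR) between HMRKO + MI and HMRKO + sham livers and 3.05 (SE 0.58, adjusted p = 0.00294 from edgeR) between HMRKO + MI and LC + MI livers. In LC livers it was −0.59 (SE 0.57, adjusted p = 0.597 from edgeR). The effect of MI in HMRKO livers exceeded that in LC livers by 3.76 on the log2 scale (SE 0.80, adjusted p = 0.0136 from edgeR), and this held without each liver in turn, with adjusted p-values of 0.00791 to 0.0328. Egr1 RNA was spread widely within HMRKO + MI, at 26.4 ± 11.9 CPM (SD, n = 3). Since these are whole livers, more cells of a type and more RNA per cell cannot be told apart, here or for the genes that follow.

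Among the Jun genes, all 3 were higher in HMRKO + MI than in LC + MI livers, and Jun and Jund were also higher than in HMRKO + sham livers. Junb, a Jun family member that can oppose Jun at some targets, stood at 102, 93.4 and 91.8 CPM in HMRKO + MI livers, against 59.7, 101 and 54.1 CPM in HMRKO + sham livers. It stood at 33.9, 37.0 and 24.1 CPM in LC + MI livers, against 56.2, 91.7 and 25.0 CPM in LC + sham livers. The HMRKO + MI livers were alike and above every LC + MI liver, whereas replicate 2 of HMRKO + sham lay within their range and replicate 2 of LC + sham just below it. The log2 fold change was 1.60 (SE 0.37, adjusted p = 0.00779 from edgeR) between HMRKO + MI and LC + MI livers but 0.42 (SE 0.36, adjusted p = 0.367 from edgeR) between HMRKO + MI and HMRKO + sham livers. In LC livers Junb was at a log2 fold change of −0.87 after MI (SE 0.37, adjusted p = 0.189 from edgeR). This value passed the threshold without replicate 3 of LC + sham (−1.23, adjusted p = 0.0499) and with no filter on low counts (−0.88, adjusted p = 0.0471), and was −0.36 without replicate 2 of LC + sham (adjusted p = 0.638).

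Jund, the Jun gene that is also transcribed in resting cells, stood at 82.7, 87.9 and 72.5 CPM in HMRKO + MI livers, against 51.6, 37.9 and 58.1 CPM in HMRKO + sham livers. It stood at 35.6, 53.7 and 36.3 CPM in LC + MI livers, against 60.8, 49.6 and 45.9 CPM in LC + sham livers. The HMRKO + MI livers were again above all others. Jund rose by 0.72 on the log2 scale between HMRKO + MI and HMRKO + sham livers (SE 0.20, adjusted p = 0.0105 from edgeR) and was higher by 0.95 than in LC + MI livers (SE 0.20, adjusted p = 0.00457 from edgeR). With library totals in place of TMM scaling (the library factors of edgeR), the log2 fold change between HMRKO + MI and HMRKO + sham livers was 0.57 (adjusted p = 0.066). In LC livers the log2 fold change after MI was −0.32 (SE 0.20, adjusted p = 0.384 from edgeR).

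Jun encodes c-Jun, the subunit that Jun N-terminal kinases phosphorylate. Its level was 22.5, 12.6 and 14.6 CPM in HMRKO + MI livers, against 5.70, 6.55 and 10.1 CPM in HMRKO + sham livers. It was 4.26, 13.3 and 7.47 CPM in LC + MI livers, against 7.82, 8.70 and 8.74 CPM in LC + sham livers. The HMRKO groups did not overlap, but replicate 2 of LC + MI reached into the range of HMRKO + MI. Jun was higher by 1.15 on the log2 scale in HMRKO + MI than in HMRKO + sham livers (SE 0.35, adjusted p = 0.017 from edgeR). This call was lost without replicate 1 of HMRKO + MI (0.87, adjusted p = 0.0777), without replicate 1 of HMRKO + sham (0.99, adjusted p = 0.0675) or without replicate 2 of HMRKO + sham (1.07, adjusted p = 0.0591). Against LC + MI it was higher by 0.98 (SE 0.34, adjusted p = 0.0469 from edgeR), which was lost when any of 9 of the 12 livers was left out (all but HMRKO + MI replicate 2, HMRKO + sham replicate 3 and LC + MI replicate 2), with adjusted p-values of 0.0527 to 0.177, and also when the fit held only these groups (adjusted p = 0.0867).

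The Fos genes differed among themselves. Fosl2, which encodes the long-lived Fos family protein Fra-2, stood at 23.2, 20.5 and 23.1 CPM in HMRKO + MI livers, against 8.63, 11.8 and 10.8 CPM in HMRKO + sham livers. It stood at 10.6, 13.3 and 12.8 CPM in LC + MI livers, against 9.01, 11.4 and 7.92 CPM in LC + sham livers. The HMRKO + MI livers lay well above all others, which formed one range. Fosl2 rose by 1.10 on the log2 scale between HMRKO + MI and HMRKO + sham livers (SE 0.17, adjusted p = 0.000325 from edgeR) and was higher by 0.86 than in LC + MI livers (SE 0.16, adjusted p = 0.00315 from edgeR), and both calls held in each of their 18 alternatives. In LC livers the log2 fold change was 0.38 (SE 0.17, adjusted p = 0.205 from edgeR).

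Fos itself, whose product c-Fos pairs with c-Jun, was near the bottom of the detectable range. It stood at 1.90, 1.10 and 0.710 CPM in the HMRKO + MI livers, against 1.51, 1.35 and 1.19 CPM in the HMRKO + sham livers. It stood at 1.25, 4.34 and 0.346 CPM in the LC + MI livers, against 1.18, 1.63 and 2.24 CPM in the LC + sham livers. These values rest on 10 to 108 counts per liver, and the groups overlapped. The log2 fold changes ran between −0.69 (SE 0.65, HMRKO + MI versus LC + MI) and 0.23 (SE 0.62, LC + MI versus LC + sham), none of which passed. Fosb, a close relative of Fos, had 0 to 27 counts per liver. It reached 1.09 CPM in LC + MI replicate 2. LC + MI replicate 1 and LC + sham replicate 2 had 0 counts, which allows up to 3 counts. Its fold changes had standard errors above 1 on the log2 scale and none passed, so that a change in Fosb could not be resolved with these counts and this spread between livers.

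Atf3, a stress-induced partner of Jun that often represses, was low and even. It averaged 1.27 ± 0.167 CPM in the HMRKO + MI livers, against 1.29 ± 0.400 CPM in the HMRKO + sham livers (SD, n = 3 each). It averaged 1.18 ± 0.199 CPM in the LC + MI livers, against 1.05 ± 0.332 CPM in the LC + sham livers (SD, n = 3 each). Its log2 fold changes at 1 day ran between −0.04 and 0.30 with standard errors of 0.32, and none passed. Ier2, a small nuclear protein of the immediate early class, stood at 28.4, 32.2 and 20.3 CPM in HMRKO + MI livers, against 31.6, 33.6 and 30.3 CPM in HMRKO + sham livers. It stood at 22.4, 22.5 and 16.5 CPM in LC + MI livers, against 40.3, 21.5 and 31.5 CPM in LC + sham livers. The groups overlapped in both genotypes. The log2 fold change of Ier2 was −0.61 in LC livers (SE 0.22, adjusted p = 0.134 from edgeR) and −0.24 in HMRKO livers (SE 0.22, adjusted p = 0.405 from edgeR).

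Myc encodes the growth regulator c-Myc, which drives genes of ribosome production and metabolism. It varied widely between livers of the same group. It stood at 13.5, 6.10 and 7.76 CPM in the HMRKO + MI livers, against 34.4, 11.8 and 2.33 CPM in the HMRKO + sham livers. It stood at 10.2, 4.38 and 4.43 CPM in the LC + MI livers, against 12.4, 1.81 and 22.3 CPM in the LC + sham livers. The spread was widest among the sham livers of both genotypes, which held both the highest and the lowest values. The standard errors of its log2 fold changes were 0.81 to 0.84 and none passed, the value between HMRKO + MI and HMRKO + sham livers being −0.84 (adjusted p = 0.429 from edgeR).

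**Figure D2:**
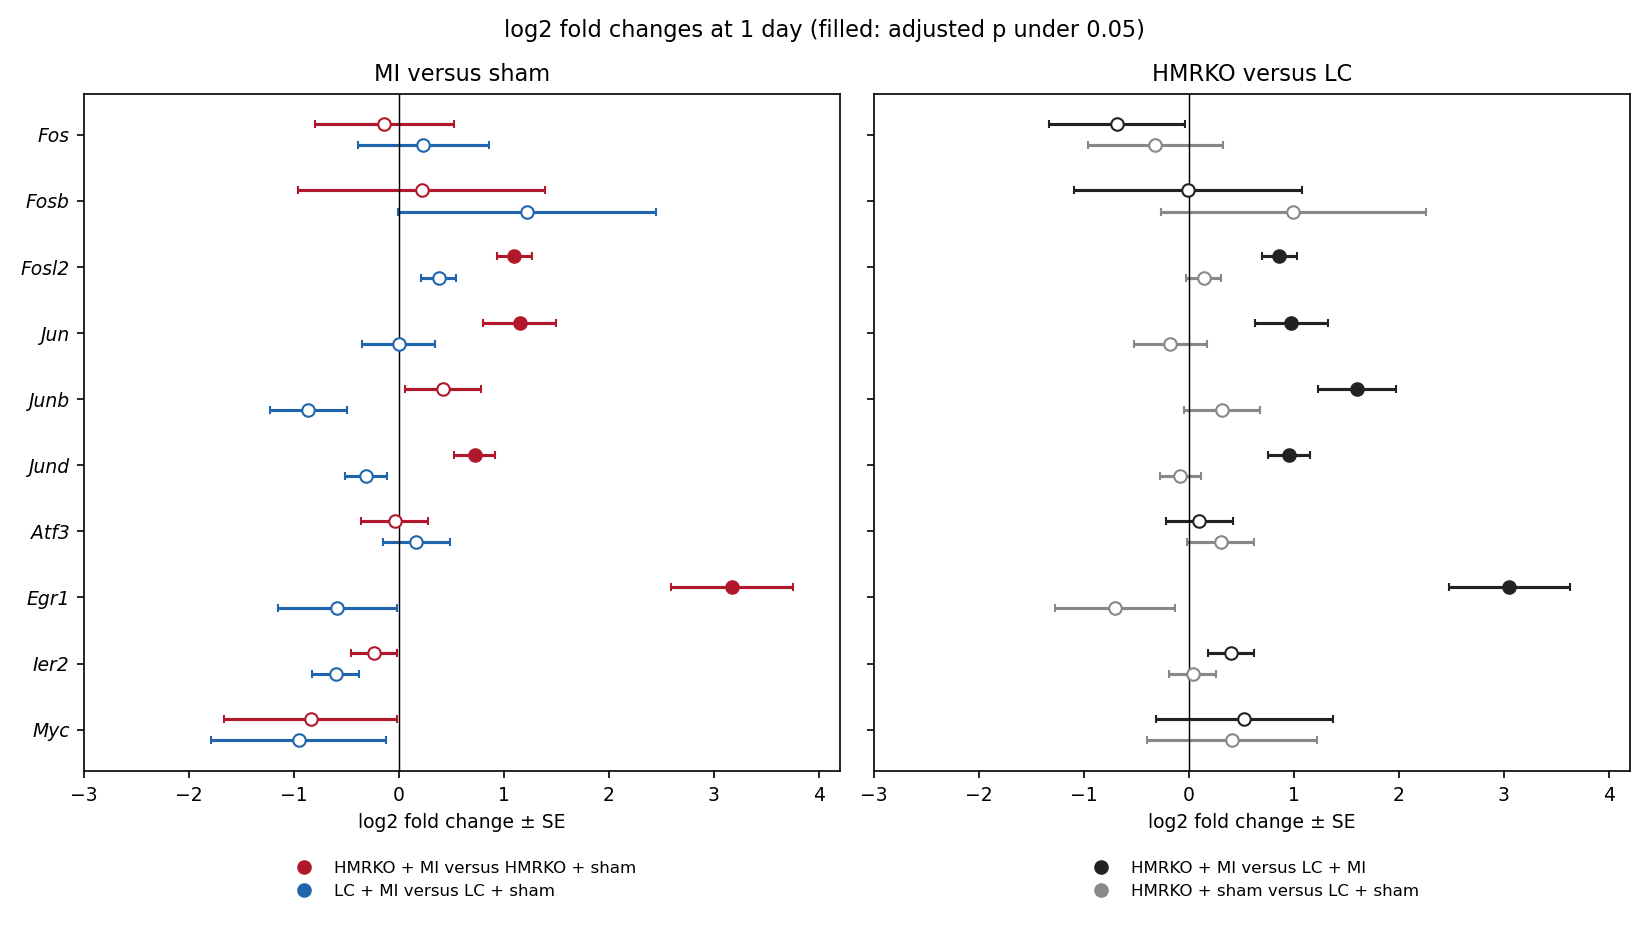
log2 fold change ± SE of the 10 genes at 1 day, for MI versus sham in each genotype (left) and for HMRKO versus LC after each operation (right), with filled points at an adjusted p under 0.05. Egr1 stood furthest from 0 in HMRKO + MI livers, at 3.17 against HMRKO + sham and 3.05 against LC + MI, and no point was filled in LC livers or between the sham groups.

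Whether MI acted differently in the genotypes was tested by the interaction of genotype and operation. Of the 10 genes, 2 passed in the direction of a larger effect in HMRKO livers (Egr1 and Jund) and 0 in the other, against 6.74% of all genes higher and 8.5% lower. For Jund the difference of the effects was 1.04 on the log2 scale (SE 0.28, adjusted p = 0.0288 from edgeR). This call was lost without HMRKO + MI replicate 1 or 2, HMRKO + sham replicate 2, LC + MI replicate 1 or 3, or LC + sham replicate 1 or 2, with values of 0.88 to 1.07 and adjusted p-values of 0.0515 to 0.0639. For Fosl2, Junb and Jun the differences were 0.72 (SE 0.23, adjusted p = 0.0539), 1.29 (SE 0.51, adjusted p = 0.102) and 1.16 (SE 0.49, adjusted p = 0.118 from edgeR), and they did not pass, though each had an unadjusted p under 0.05. Without LC + sham replicate 3 the count was 4, with Fosl2 (0.83, adjusted p = 0.0433) and Junb (1.65, adjusted p = 0.0229) added, and without LC + MI replicate 2 it was 3, with Jun added (1.66, adjusted p = 0.0231). With DESeq2 in place of edgeR, Fosl2 also passed (adjusted p = 0.0395 from DESeq2).

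Library scaling moved the balance of higher and lower calls over all genes. With library totals alone, the numbers of all genes higher and lower became 2015 and 3756, against 3138 and 3099 with TMM scaling, for HMRKO + MI versus HMRKO + sham. They became 1232 and 2498, against 2089 and 2311, for HMRKO + MI versus LC + MI, and 249 and 573, against 382 and 332, for LC + MI versus LC + sham. For the interaction they became 487 and 1248, against 962 and 1213. The median log2 fold change of all genes was then −0.13, −0.07, −0.10 and −0.03 in these 4 comparisons. Of the 10 genes, 3 were then higher in HMRKO + MI than in HMRKO + sham livers (Jund lost) and 4 in HMRKO + MI than in LC + MI livers (Jun lost), 1 passed in the interaction (Jund lost), and no call reversed.

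Among other immediate early genes, the share that passed as higher was near that of all genes against HMRKO + sham livers. Of 25 listed, 20 were tested, and 5 were higher and 1 was lower in HMRKO + MI than in HMRKO + sham livers, against 22.0% and 21.7% of all genes, the median log2 fold change being 0.30. The same numbers, 5 higher and 1 lower with a median of 0.44, were found against LC + MI livers, where 14.6% of all genes were higher and 16.2% lower. In LC livers 0 of 20 passed, and 2 had an unadjusted p under 0.05. Btg2, an antiproliferative gene, was higher by 1.32 and 1.28 on the log2 scale in the comparisons with HMRKO + sham and with LC + MI (SE 0.25 and 0.25, adjusted p = 0.00124 and 0.00332 from edgeR). Klf10, a zinc finger factor that transforming growth factor beta induces, was higher by 1.41 and 2.08 (SE 0.36 and 0.37, adjusted p = 0.00677 and 0.00233 from edgeR). Zfp36, whose product destabilises short-lived RNAs, stood at 135 ± 24 CPM in the HMRKO + MI livers, against 61.6 ± 8.4 CPM in the LC + MI livers (SD, n = 3 each), a log2 fold change of 1.14 (adjusted p = 0.00352 from edgeR). Cyr61, a secreted matrix protein gene, went the other way and was lower by 1.42 on the log2 scale than in HMRKO + sham livers (log2 fold change −1.42, SE 0.32, adjusted p = 0.0034 from edgeR). Btg2 and Zfp36 also passed the interaction test.

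The other bZIP genes that can share partners with AP-1 moved in both directions. Of 9 tested, 1 was higher and 3 were lower in HMRKO + MI than in HMRKO + sham livers, against 22.0% and 21.7% of all genes. Compared with LC + MI livers, 3 were higher and 2 were lower, against 14.6% and 16.2% of all genes. Atf2, a partner of Jun, was higher in both (log2 fold changes 0.86 and 0.70, adjusted p = 0.00689 and 0.0281 from edgeR), while Mafg, a small Maf protein gene, was lower in both (−1.05 and −0.69, adjusted p = 0.00332 and 0.0397 from edgeR). Batf2 was lower after MI in HMRKO livers (−2.41, adjusted p = 0.00271 from edgeR) and in LC livers (−1.89, adjusted p = 0.0213 from edgeR), and was the 1 gene of this list to pass in LC livers.

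Among kinases and factors that act upstream of immediate early genes, 7 of 23 were higher and 6 were lower in HMRKO + MI than in HMRKO + sham livers, and 7 were higher and 4 were lower than in LC + MI livers. Of all genes, 22.0% were higher and 21.7% lower in the comparison with HMRKO + sham, and 14.6% and 16.2% in that with LC + MI. Rps6ka3, which encodes the growth factor kinase RSK2, was higher by 1.57 and 1.25 on the log2 scale (SE 0.19 and 0.19, adjusted p = 8.05e-05 and 0.00112 from edgeR). Map2k4, a kinase that activates Jun N-terminal kinases, was higher by 0.73 and 0.61 (adjusted p = 0.000697 and 0.00395 from edgeR). Map2k3 and Map2k6, which activate p38 kinases, were lower than in HMRKO + sham livers (−0.85 and −2.88, adjusted p = 0.00112 and 0.00118 from edgeR). In LC livers 0 of the 23 passed, 2 having an unadjusted p under 0.05.

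Of 16 phosphatases and feedback inhibitors of MAP kinases, 4 were higher and 1 was lower in HMRKO + MI than in HMRKO + sham livers, and 2 were higher and 0 were lower than in LC + MI livers. The counts of higher genes lay near the shares of all genes (22.0% and 14.6%). Spry1, a feedback inhibitor of growth factor receptor signals, was higher than in HMRKO + sham livers by 1.09 on the log2 scale (adjusted p = 0.00688 from edgeR). Errfi1, a feedback inhibitor of the EGF receptor, stood at 1018 ± 110 CPM in the HMRKO + MI livers, against 616 ± 118 CPM in the HMRKO + sham livers and 666 ± 68 CPM in the LC + MI livers (SD, n = 3 each). Its log2 fold changes were 0.73 and 0.61 (adjusted p = 0.00774 and 0.027 from edgeR). Dusp8, a phosphatase of Jun N-terminal kinases, was higher by 2.30 and 1.86 (adjusted p = 0.00243 and 0.0107 from edgeR), with 1.25 ± 0.22 CPM in the HMRKO + MI livers, against 0.244 ± 0.17 CPM in the HMRKO + sham livers and 0.34 ± 0.089 CPM in the LC + MI livers (SD, n = 3 each).

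Myc itself did not pass, whereas many genes known as its targets did. Of 19, 12 were higher and 0 were lower in HMRKO + MI than in HMRKO + sham livers, against 22.0% and 21.7% of all genes. The median log2 fold change of the 19 was 0.92. Compared with LC + MI livers 11 were higher and 0 were lower, against 14.6% and 16.2% of all genes, with a median of 0.63. In LC livers 0 of 19 passed, 3 having an unadjusted p under 0.05. Ldha, the lactate dehydrogenase gene, stood at 1746 ± 232 CPM in the HMRKO + MI livers, against 467 ± 54 CPM in the HMRKO + sham livers and 697 ± 243 CPM in the LC + MI livers (SD, n = 3 each). Its log2 fold changes were 1.90 and 1.32 (adjusted p = 0.000237 and 0.00407 from edgeR). Nop58, of the small nucleolar ribonucleoproteins, was higher by 1.45 and 1.03 (adjusted p = 0.000542 and 0.00696 from edgeR). Ncl, the nucleolin gene, was higher than in HMRKO + sham livers by 1.02 (adjusted p = 0.000567 from edgeR). In the interaction test 5 of the 19 passed, all toward a larger effect in HMRKO livers, against 6.74% of all genes higher and 8.5% lower. Of 12 partners and antagonists of Myc, 1 was higher and 3 were lower in HMRKO + MI than in HMRKO + sham livers (22.0% and 21.7% of all genes). Compared with LC + MI livers, 2 were higher and 1 was lower (14.6% and 16.2% of all genes). Mxd3, an antagonist of Myc, was higher by 2.67 and 2.79 (adjusted p = 0.00242 and 0.00396 from edgeR), and Mlxipl, which encodes the glucose-responsive factor ChREBP, was lower by both comparisons (−1.70 and −0.80, adjusted p = 0.000552 and 0.0432 from edgeR).

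Of 9 tested genes known as AP-1 targets, 4 were higher and 1 was lower in HMRKO + MI than in HMRKO + sham livers. The shares of all genes were 22.0% and 21.7%. Compared with LC + MI livers, 3 were higher and 0 were lower, against 14.6% and 16.2% of all genes. In LC livers 0 passed, 1 having an unadjusted p under 0.05. Hmox1, the heme oxygenase gene, was higher by 1.67 and 1.75 on the log2 scale (SE 0.35 and 0.35, adjusted p = 0.00237 and 0.00392 from edgeR) and passed the interaction test (1.99, adjusted p = 0.0215 from edgeR). Mmp9 and Plaur, of matrix breakdown, passed in both comparisons at levels of 1.24 ± 0.21 and 1.51 ± 0.49 CPM in HMRKO + MI livers (SD, n = 3 each).

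**Figure D3:**
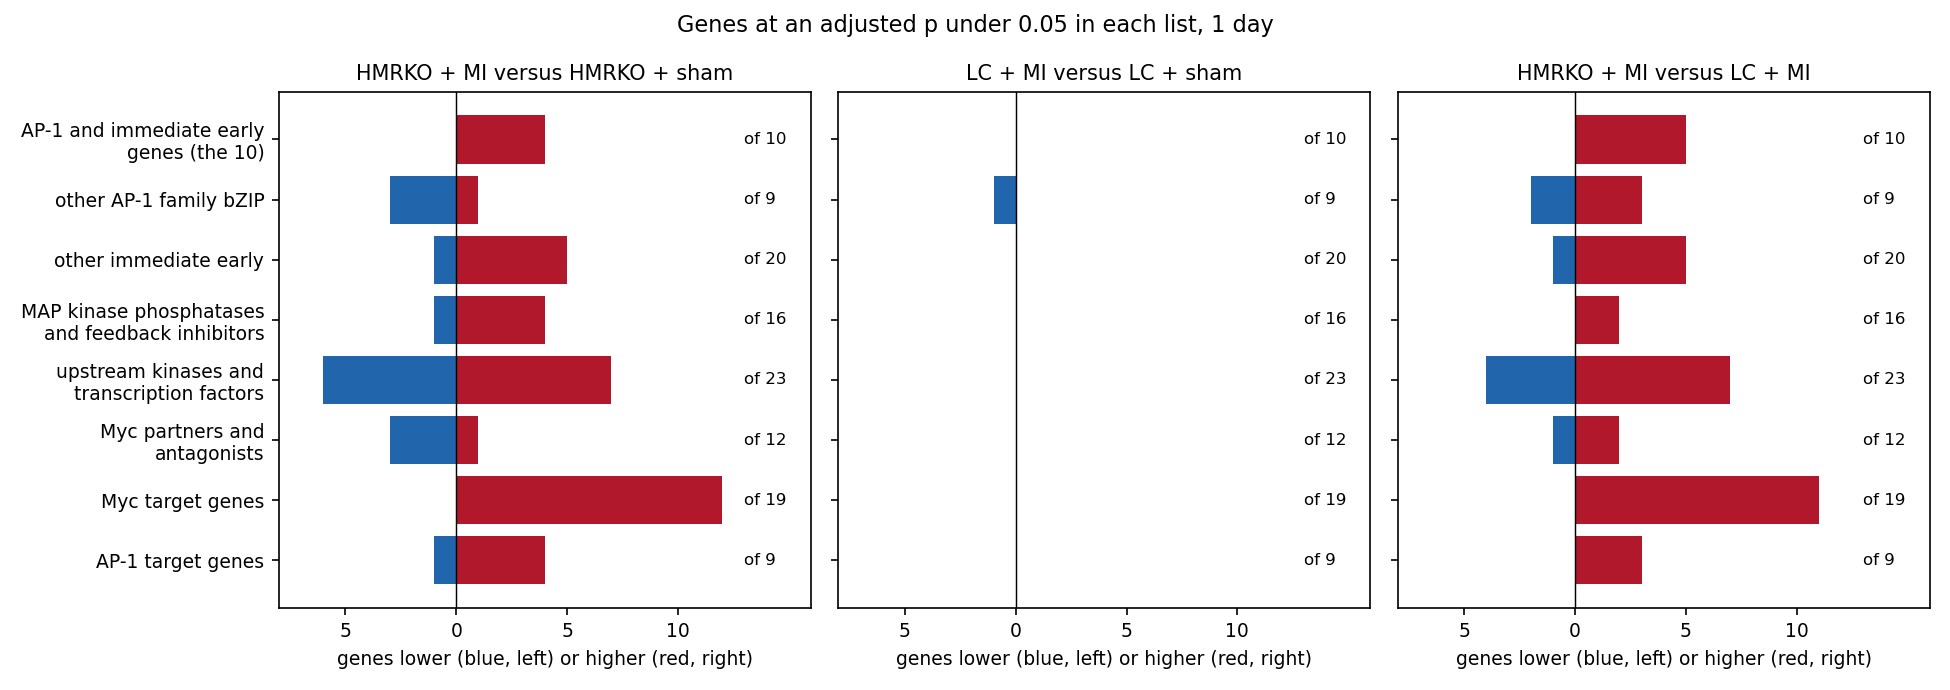
Number of genes of each list at an adjusted p under 0.05 at 1 day, higher to the right and lower to the left of 0, with the number tested at the right of each bar, for 3 comparisons. The 19 Myc target genes had 12 and 11 higher and 0 lower in the comparisons of HMRKO + MI livers with HMRKO + sham and LC + MI. The shares of all genes there were 22.0% and 14.6% higher, and 21.7% and 16.2% lower. Among these lists 1 bZIP gene, which was lower, passed in LC livers.

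Only the summed neutrophil and lymphocyte markers set the HMRKO + MI livers apart from all other livers at 1 day. The sums of hepatocyte, Kupffer cell, monocyte, sinusoidal endothelial, stellate cell and fibroblast, cholangiocyte and erythroid markers overlapped with those of other groups. The 10 neutrophil markers summed to 30.5 to 33.7 CPM in the HMRKO + MI livers, against 9.13 to 14.1 CPM in the HMRKO + sham livers. They summed to 10.9 to 20.6 CPM in the LC + MI livers, against 4.71 to 13.4 CPM in the LC + sham livers. Of the 6 tested, 5 were higher in HMRKO + MI than in HMRKO + sham livers and 4 than in LC + MI livers, against 22.0% and 14.6% of all genes. The 4 monocyte markers summed to 2.57 to 4.11 CPM in the HMRKO + MI livers, against 0.867 to 2.98 CPM in all others. The 7 Kupffer cell markers summed to 65.2 to 136 CPM in the HMRKO + MI livers, against 105 to 198 CPM in all others. The 7 lymphocyte markers summed to 0.402 to 0.951 CPM in the HMRKO + MI livers, where Ncr1 had 0 counts, against 1.29 to 6.39 CPM in all others. Hepatocyte markers summed to 66800 to 71810 CPM in the HMRKO + MI livers, against 48880 to 64170 CPM in the HMRKO + sham livers. They summed to 64190 to 70220 CPM in the LC + MI livers, against 67280 to 75270 CPM in the LC + sham livers. The part of these cells in the levels of Egr1, the Jun genes and Fosl2 was not tested.

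The hour of day of sampling is not given in the sources used here, and clock genes, some of which respond to the same signals as immediate early genes, differed with the operation in both genotypes. Dbp averaged 8.68 ± 1.1 CPM in the HMRKO + MI livers, against 296 ± 10 CPM in the HMRKO + sham livers (SD, n = 3 each). It averaged 9.49 ± 4.4 CPM in the LC + MI livers, against 196 ± 18 CPM in the LC + sham livers (SD, n = 3 each). Both falls passed, and Arntl was higher in both genotypes (log2 fold changes 3.56 and 3.06). Between HMRKO + MI and LC + MI livers, 2 of the 7 clock genes tested were higher and 0 were lower, against 14.6% and 16.2% of all genes. The 2 higher genes were Ciart (1.00, adjusted p = 0.0191 from edgeR) and Per1 (1.12, adjusted p = 0.0283 from edgeR). Between HMRKO + sham and LC + sham livers 0 of the 7 passed. There 4 had an unadjusted p under 0.05 from edgeR, and the median log2 fold change was 0.50. The part of sampling time in the levels of the 10 genes was not tested.

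At 12 h the largest difference was that of Junb, which was nearly 6 times as abundant in C57 MI as in C57 sham livers. Of 9 genes tested, 4 were higher (Junb, Jund, Fosl2 and Egr1) and 0 were lower, against 34.3% of all 12548 genes tested that were higher and 32.0% that were lower, a share of the members not far from the background. The median log2 fold change was 0.87 over the 9 genes and 0.11 over all genes. The C57 sham libraries were the shallow ones, and the balance of all genes moved with the scaling. With TMM scaling 4299 genes were higher and 4013 lower. With library totals alone the median of all genes was −0.54, and 2116 were higher and 5620 lower. With limma on log2(TPM + 1), where TPM is the level per transcript length scaled to a common total, the median was −0.37, and 2229 were higher and 5012 lower. Fold changes at 12 h are therefore best read relative to these medians. The hepatocyte markers summed to 78820 to 109100 CPM in C57 MI and 32730 to 35450 CPM in C57 sham livers. The neutrophil markers summed to 45.8 to 91.7 CPM in C57 MI and 136 to 183 CPM in C57 sham livers, although 5 of the 8 tested were higher in C57 MI livers and 2 were lower (Csf3r and Cxcr2). The stellate cell and fibroblast markers summed to 113 to 160 CPM in C57 MI and 234 to 387 CPM in C57 sham livers. The part of these cells was not tested. Of the 7 clock genes tested at 12 h, 3 were higher and 3 were lower, with Dbp at a log2 fold change of −5.39 (adjusted p = 1.85e-05 from edgeR). The part of sampling time at 12 h was not tested.

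Junb stood at 147, 127 and 136 CPM in C57 MI livers, against 25.3, 17.0 and 28.8 CPM in C57 sham livers. Its log2 fold change was 2.53 (SE 0.23, adjusted p = 1.04e-05 from edgeR), and it passed in each of 13 alternatives with values of 1.88 to 2.76. Jund stood at 199.2, 195.7 and 175.5 CPM in C57 MI livers, against 87.2, 34.8 and 53.9 CPM in C57 sham livers. Neither gene had any overlap between the groups. The log2 fold change of Jund was 1.71 (SE 0.30, adjusted p = 0.000565 from edgeR), and it too passed in each of 13 alternatives, with values of 1.06 to 2.13.

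Fosl2 and Egr1 were called with less certainty. Fosl2 stood at 24.4, 23.7 and 24.6 CPM in C57 MI livers, against 15.3, 6.33 and 9.73 CPM in C57 sham livers. Its log2 fold change was 1.25 (SE 0.28, adjusted p = 0.0027 from edgeR), but 0.51 with limma on log2(TPM + 1) (adjusted p = 0.0946) and 0.60 with library totals alone (adjusted p = 0.0952). Egr1 stood at 20.7, 28.0 and 22.4 CPM in C57 MI livers, against 17.7, 8.70 and 13.2 CPM in C57 sham livers. The CPM did not overlap for either gene, whereas the deposited TPM did for both. The log2 fold change of Egr1 was 0.87 (SE 0.27, adjusted p = 0.0152 from edgeR). It did not pass with limma on log2(TPM + 1) (0.23, adjusted p = 0.429), with library totals alone (0.21, adjusted p = 0.509), without C57 MI replicate 2 (0.67, adjusted p = 0.0717) or without C57 sham replicate 2 (0.69, adjusted p = 0.0554).

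Jun stood at 20.4, 19.9 and 20.2 CPM in C57 MI livers, against 20.0, 5.93 and 9.03 CPM in C57 sham livers, and Myc at 6.95, 13.2 and 15.5 CPM in C57 MI livers, against 10.02, 1.19 and 4.86 CPM in C57 sham livers. C57 sham replicate 1 lay within or next to the MI range for both genes. Their log2 fold changes were 0.85 (SE 0.35, adjusted p = 0.0502 from edgeR) and 1.25 (SE 0.53, adjusted p = 0.0579 from edgeR), just short of the threshold. Without C57 sham replicate 1 both passed, at 1.45 (adjusted p = 0.00208) and 1.97 (adjusted p = 0.0174), and Myc also passed without C57 MI replicate 1 (1.53, adjusted p = 0.0158). With no filter on low counts both passed as well, at 1.01 (adjusted p = 0.0215) and 1.41 (adjusted p = 0.0321).

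Ier2 was the most even of the abundant genes, at 42.8, 41.7 and 42.4 CPM in C57 MI livers and 44.2, 46.7 and 41.3 CPM in C57 sham livers, a log2 fold change of −0.06 (SE 0.17, adjusted p = 0.774 from edgeR). It passed as lower with limma on log2(TPM + 1) (−0.67, adjusted p = 0.00861) and with library totals alone (−0.70, adjusted p = 0.00559), the settings under which the median of all genes was also below 0 (−0.37 and −0.54). Fos stood at 0.632, 1.59 and 1.63 CPM in C57 MI livers, against 2.95, 1.19 and 2.78 CPM in C57 sham livers, where it had 5, 3 and 8 counts. Its log2 fold change was −0.81 (SE 0.55, adjusted p = 0.214 from edgeR), and it passed as lower with library totals alone (−1.47, adjusted p = 0.0369). Atf3 had 26, 25 and 37 counts in C57 MI livers and 1, 3 and 9 counts in C57 sham livers, a log2 fold change of 0.19 (SE 0.53, adjusted p = 0.768 from edgeR) that followed the median of all genes with library totals alone (−0.46, against a median of −0.54). Fosb was too low to be tested, with 2, 3 and 2 counts in C57 MI livers and 0 in each C57 sham liver, where a count of 0 allows up to 3 counts, so that no fold change is given.

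**Figure D4:**
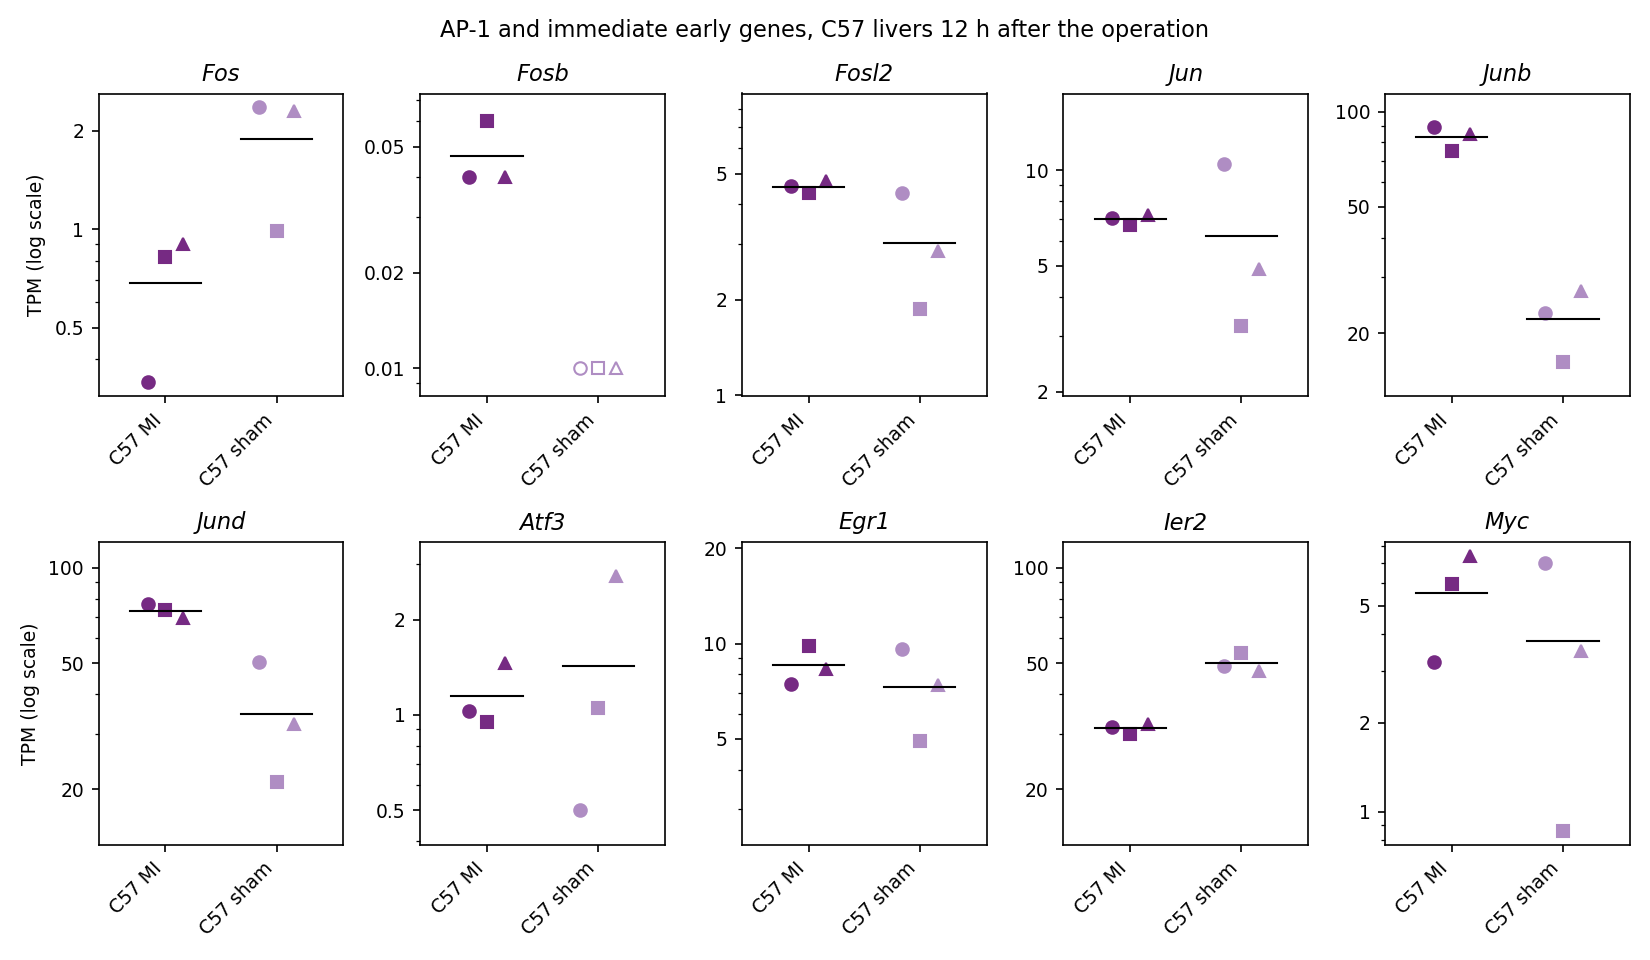
TPM (log scale) of the 10 genes in each liver at 12 h, with circles, squares and triangles for replicates 1, 2 and 3, a line at the mean of each group and open symbols at 0.01 for a value of 0. The C57 MI livers lay above all C57 sham livers for Junb (75.2 to 89.1 against 16.2 to 27.2 TPM) and Jund (69.6 to 76.7 against 21.1 to 50.5 TPM) and below them for Ier2 and Fos, whose CPM overlapped between the groups. How many of all genes lay apart at 12 h was not counted.

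Per length of transcript, the order of the 10 genes could be read at 12 h only, from the TPM that the authors deposited. In C57 MI livers, Junb (median 85.2 TPM) and Jund (73.5 TPM) led, with overlapping ranges of 75.2 to 89.1 and 69.6 to 76.7 TPM. Ier2 followed at 31.5 TPM, then Egr1 at 8.32, Jun at 7.07, Myc at 5.95 and Fosl2 at 4.57 TPM. Of these, Myc overlapped with Jun above it and Fosl2 below it, while Egr1 and Jun did not overlap with each other. Atf3 (1.03 TPM) and Fos (0.82 TPM) were next, and Fosb was last at 0.04 TPM. In C57 sham livers, Ier2 (49.0 TPM) stood above Jund (32.2 TPM) and Junb (23.1 TPM), so that the order of the leading 3 genes differed between the groups, though the range of Jund overlapped with those of Ier2 and Junb there.

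Among the wider lists at 12 h, 10 of 21 other immediate early genes were higher and 5 were lower, led by Zfp36 (log2 fold change 3.20, adjusted p = 4.34e-06 from edgeR) and Btg2 (2.88, adjusted p = 8.61e-05 from edgeR). Cyr61 was lower (−2.75, adjusted p = 0.000204 from edgeR). Of 19 Myc targets, 10 were higher and 5 were lower, Ldha at 3.35 (adjusted p = 1.27e-05 from edgeR) and Nop56, of the small nucleolar ribonucleoproteins, at −2.28 (adjusted p = 8.43e-05 from edgeR). Nop58, which was higher in HMRKO + MI livers at 1 day, was lower at 12 h (−1.67, adjusted p = 0.000485 from edgeR). Ncl was higher at 12 h (0.85, adjusted p = 0.00306 from edgeR). Of 7 tested AP-1 targets, 2 were higher and 3 were lower, with Hmox1 at 2.94 (adjusted p = 0.000249 from edgeR) and Ccnd1, the cyclin D1 gene, at −3.13 (adjusted p = 1.38e-05 from edgeR). Of 7 other bZIP genes 2 were higher and 3 were lower, and of 13 phosphatases and feedback inhibitors 3 were higher and 2 were lower. Of 23 upstream genes 9 were higher and 7 were lower, and of 11 Myc partners 4 were higher and 1 was lower. These shares lay in both directions, as did those of all genes (34.3% higher and 32.0% lower).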

How the data were processed

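Liver RNA was sequenced from 18 mice, and each library is 1 liver by its label; nothing else in the labels says how replicates were kept apart, so p-values measure the spread between these samples. For the 1-day experiment the authors deposited whole-number counts of reads per gene with no normalization. For the 12-hour experiment the authors deposited estimated counts and TPM per gene, and FPKM values, which were not used here. The submitters' processing notes name HISAT2 2.1.0, Bowtie2 2.2.3, TopHat2, DESeq2 and the mm9 genome, with no roles; the sources used here do not give the counting program, annotation or use of strand, and overlapping and antisense transcripts may share reads.

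Counts (12-hour values rounded to whole numbers) were tested with edgeR 4.0.16 in R 4.3.3 (quasi-likelihood F-test, TMM scaling, filterByExpr with a minimum count of 10 and a minimum total of 15, 1 coefficient per group, Benjamini-Hochberg adjustment over all genes tested). Each experiment was fitted on its own, over 12 livers at 1 day and 6 livers at 12 h, and a gene passed at an adjusted p under 0.05 at any fold. CPM used TMM scaling. Alternatives included DESeq2 1.42.0, limma 3.58.1 on log2(TPM + 1), another scaling, no filter, a replicate block and leaving out each liver; library totals alone and thinning were added after seeing the data. The code was tested on simulated counts. The 10 genes and the lists were chosen with earlier results of these data known. All 10 genes are named, and the list genes named are among the 4 with the smallest p of those that passed in a comparison.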

Additional observations from a re-analysis of the deposited data

Results flagged for a closer look

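The effect of MI differed between the genotypes for 2 of the 10 genes, both toward a larger effect in HMRKO livers. Of all genes, 6.74% passed in that direction and 8.5% in the other. For Egr1, the log2 fold change after MI was larger in HMRKO than in LC livers by 3.76 (adjusted p = 0.0136 from edgeR), with every HMRKO + MI liver above all others. For Jund, it was larger by 1.04 (adjusted p = 0.0288 from edgeR), a call that rests on which livers are included, since its adjusted p exceeded the threshold without any 1 of 7 of the 12 livers. Neutrophil markers were also highest in HMRKO + MI livers (30.5 to 33.7 CPM, against 4.71 to 20.6 CPM in the other groups). Of the 6 neutrophil markers tested, 0 passed the interaction test and 1 had an unadjusted p under 0.05. The part of neutrophils in either difference was not tested.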

How the results depend on the processing

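Of 994 alternative values for 59 log2 fold changes, 947 kept their side of the threshold, 30 lost it, 17 gained it and 0 called values changed sign. With no filter on low counts, 1 gene passed in LC + MI versus LC + sham and 4 in the interaction. With library totals alone 1 passed in the interaction. With an absolute log2 fold change over 1 also asked for, 2 passed in HMRKO + MI versus LC + MI. Leaving out 1 liver gave 3 to 4 genes for HMRKO + MI versus HMRKO + sham, 4 to 5 for HMRKO + MI versus LC + MI, 0 to 1 for LC + MI versus LC + sham, 1 to 4 for the interaction and 3 to 6 at 12 h. The cause of these changes was not tested.

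Same-numbered livers did not deviate together (correlations of −0.17 to 0.18 over 21 pairs), so the numbers were not taken to pair the samples. With the replicate block, 4 genes passed in HMRKO + MI versus HMRKO + sham, 4 in HMRKO + MI versus LC + MI (Jun lost), 0 in LC + MI versus LC + sham, 0 between the sham groups, 2 in the interaction and 5 at 12 h (Jun gained).

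Counts were low for Fosb and Fos, and both varied widely between livers (Fos from 10 to 108 counts within LC + MI). At 12 h depth limits every gene in the shallow C57 sham libraries. With the C57 MI libraries thinned to the mean total of the C57 sham libraries, 4 genes passed at 12 h (Junb, Jund, Fosl2 and Egr1). Of all 9996 genes tested in that fit, 3165 were higher and 3317 were lower. Thinning evened the totals only, and the part of other differences between these libraries was not tested.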

Other observations

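In some groups 1 liver was the highest for most of the 10 genes. LC + MI replicate 2 was the highest of its group for 9 of the 10 genes (all but Myc), and HMRKO + MI replicate 1 was the highest of its group for 8 (all but Ier2 and Jund). No other liver at 1 day was the highest of its group for more than 4. At 12 h, C57 sham replicate 2 was the lowest of its group for 7 genes. These values were looked at after the data were seen and were not tested.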
